A study of Ovis aries with 10 samples.

Results

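The miRNAs described here are the 5 hairpins that lie antisense to RTL1, also called PEG11, in the callipyge region of sheep chromosome 18: miR-431, miR-433, miR-127, miR-432 and miR-136. They were chosen by probe name, and 6 of the 152 ovine miRNA probes on the array belong to them, because both arms of miR-433 are present and the other hairpins have 1 probe each. All 5 hairpins matched a gene of the RefSeq annotation of the sheep assembly ARS-UI_Ramb_v3.0. There they follow each other in the order MIR431, MIR433, MIR127, MIR432 and MIR136, with no other annotated gene between them, and all 5 lie within the span of RTL1.

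The region between DLK1 and DIO3 is imprinted, which means that each of its transcripts is made from the chromosome of a single parent. RTL1 encodes a protein derived from a retrotransposon and is expressed from the paternal chromosome, while the antisense transcript that holds these miRNAs is maternal and pairs perfectly with the RTL1 message, which the miRNAs can direct to be cut. In sheep the region is best known for the callipyge mutation, which causes enlarged hindquarter muscles when inherited from the father alone. It is accompanied by raised DLK1 and RTL1 in the affected muscle. Many further miRNAs of the maternal strand lie downstream and are known from placenta, brain, developing muscle and other mesenchymal tissue.

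The study asked which miRNAs differ between fibrotic and normal lung in a sheep model of idiopathic pulmonary fibrosis. The labels give 5 female sheep aged 9 months, numbered 2, 3, 6, 7 and 10, each with 1 caudal lung segment of fibrotic and 1 of normal histology, sampled at week 4, and the methods give the breed as merino. Per the methods, the fibrotic segment had received bleomycin, a drug that injures the lung, through a bronchoscope and the other segment saline, so that each animal carries its own control, and the profiled animals were those with the most severe fibrosis. The labels and the methods name the same segment, the left, as treated in sheep 2 and 3, but in sheep 6, 7 and 10 the fibrotic segment is labelled right, where the methods give the left in all animals. Groups follow the labels throughout, and series of 5 values below follow the order of sheep 2, 3, 6, 7 and 10.

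Each array gave 1 background-corrected intensity per probe. Intensities were set to at least 1 and taken to log2, and a probe with a mean log2 signal under 5 over the 10 arrays is called dim. By this limit miR-127 and miR-432 were not dim, and the other 4 probes, miR-136, miR-431, miR-433-3p and miR-433-5p, were dim. Of all 152 miRNA probes, 93 were dim. Intensities of different probes are not set against each other as amounts, since probes differ in brightness. In whole lung tissue a lower signal cannot be told apart from fewer cells of the type that makes the miRNA.

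The summed miRNA intensity lay between 138979 and 146225 on the 10 arrays, while the mean log2 signal of the 31 control probes that reached 5 on every array ran from 9.86 to 12.30. The array carried 3 of 6 listed epithelial miRNAs (miR-200a, miR-200b and miR-200c), 2 of 4 of mesenchyme and smooth muscle (miR-143 and miR-199a-3p), 1 of 3 of striated muscle (miR-133), 1 of 6 of blood cells (miR-150), and none for endothelium. The epithelial sum was between 2400 and 4319 in normal and between 3496 and 6712 in fibrotic segments, so the epithelial probes were bright on every array of the labelled lung tissue.

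MiR-127, which is known to repress BCL6 and to cut the RTL1 message, was higher in the fibrotic segment of 4 of 5 sheep and lower in sheep 6. Its intensities in the normal segments were 178, 131, 796, 148 and 265 in the order of the sheep given above. The fibrotic segments of the same animals had 292, 235, 557, 305 and 298.6. The groups overlapped, since sheep 6 had the highest value of each group and its normal segment was the brightest of all 10 arrays. The fibrotic over normal ratios were 1.64, 1.80, 0.700, 2.06 and 1.13. Normal segments averaged a log2 signal of 7.88 ± 1.05 (SD, n = 5), and fibrotic segments averaged 8.33 ± 0.47 (SD, n = 5). The log2 change was 0.45 ± 0.26 (SE), with a 95% confidence interval from -0.21 to 1.11 and an adjusted p, over the 152 miRNAs in limma, of 0.518. With 1 sheep left out in turn it ran from 0.30 without sheep 7 (limma adjusted p = 0.842) to 0.69 without sheep 6 (limma adjusted p = 0.274).

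MiR-432, the next gene after miR-127 in the annotation, lay just above the limit for dim probes, with a mean log2 signal of 5.20. Its mean was 4.86 over normal and 5.54 over fibrotic segments, so it passed the limit only through the fibrotic segments, and a filter of this kind favours a positive change. Its intensities in the normal segments were 17.2, 15.6, 97.4, 19.7 and 40.5, and the fibrotic segments of the same animals had 42.7, 40.7, 72.6, 36.2 and 48.2. As for miR-127, the fibrotic segment was the brighter one in sheep 2, 3, 7 and 10 and the dimmer one in sheep 6, and the normal segments ran from below all fibrotic segments to above all of them. The ratios were 2.48, 2.61, 0.746, 1.83 and 1.19. The log2 change was 0.68 ± 0.31 (SE), with a 95% confidence interval from -0.10 to 1.46 (limma adjusted p = 0.484). With 1 sheep left out in turn it ran from 0.50 without sheep 3 (limma adjusted p = 0.676) to 0.95 without sheep 6 (limma adjusted p = 0.274). With the floor raised to 32, which lies above the normal values of sheep 2, 3 and 7, the change was 0.15.

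**Figure D1:**
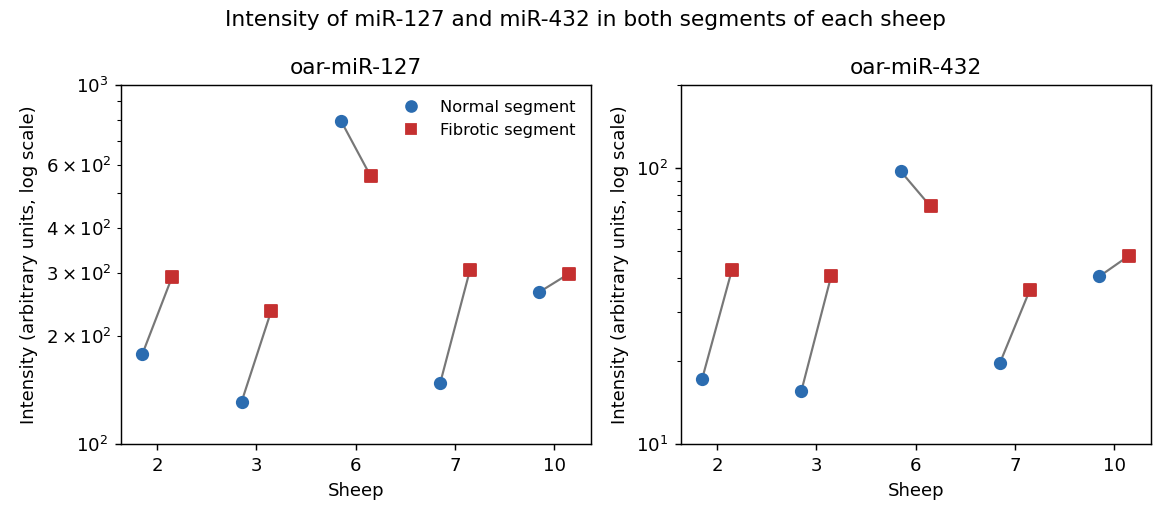
Intensity of miR-127 (left) and miR-432 (right) on a log axis for the normal (circles) and the fibrotic segment (squares) of each of the 5 sheep, with a line joining the segments of 1 animal. The line climbs from normal to fibrotic for both miRNAs in sheep 2, 3, 7 and 10 and drops in sheep 6, whose normal segment reached 796 and 97.4.

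Among the 152 miRNAs, 35 (23%) were higher in the fibrotic segment of at least 4 of 5 sheep, and 3 of the 6 RTL1-antisense probes were, namely miR-127, miR-432 and the dim miR-433-5p. The full pattern of miR-127 and miR-432, with sheep 6 lower and the other 4 sheep higher, was shared by 10 of the 152 probes. Among the 59 probes that were not dim it was held by 5, which were let-7g, miR-127, miR-200a, miR-376c-3p and miR-432.

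In limma no RTL1-antisense probe had an adjusted p under 0.05, and neither did any of the 152 miRNAs (0%). At an unadjusted p under 0.05 the count was 18 of 152 (11.8%), and 1 of the 6, the dim miR-433-5p, was among them. The median log2 change over the 6 probes was 0.28, with 4 above 0 and 2 below. Over all 152 miRNAs it was -0.021, with 70 above 0 and 81 below. Counted per animal, 3, 2, 3, 5 and 4 of the 6 probes were above 0, against 61, 57, 94, 74 and 68 of all 152 miRNAs.

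In no sheep did all 6 probes change 1 way, while miR-127 and miR-432 kept a fairly steady distance over the arrays. The log2 signal of miR-432 minus that of miR-127 stayed between -3.37 and -2.53 over the 10 arrays, while miR-127 alone varied 6.07-fold and miR-432 alone 6.24-fold. Over normal segments this difference averaged -3.02 ± 0.24 (SD, n = 5), and over fibrotic segments -2.79 ± 0.22 (SD, n = 5). It changed by 0.60, 0.54, 0.092, -0.17 and 0.080 from the normal to the fibrotic segment, so that the ratio of the probes moved most in sheep 2 and 3. This pair was chosen after its values were seen and no test is given.

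Likeness to other miRNAs was measured as the root mean square difference between log2 profiles over the 10 arrays, each centred on its own mean, with the 58 other probes that were not dim as candidates. The probe closest to miR-127 was miR-432, and the probe closest to miR-432 was miR-127, at 0.24. The next for miR-127 were miR-379-5p, a miRNA of the same imprinted region, at 0.30 and miR-22-3p at 0.43. For miR-432 they were miR-379-5p at 0.40 and miR-21, known as a profibrotic miRNA, at 0.41. The median over all candidates was 0.78 for miR-127 and 0.85 for miR-432. These points share arrays, and 2 of them come from each animal.

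Part of this shared profile was also seen in the control probes. Their mean log2 signal was highest in the normal segment of sheep 6, at 12.30, and lowest in the normal segment of sheep 3, at 9.86, the same 2 arrays that were highest and lowest for miR-127 and miR-432. By the same measure of likeness the control mean differed by 0.36 from miR-127 and by 0.46 from miR-432. From normal to fibrotic the control mean differed by 0.69, 0.049, -0.79, 0.56 and -0.50, with an average of 0.0041. The part of the control signal in the profile of both miRNAs was not tested.

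Relative to the control probes of the same array, the log2 changes of miR-127 were 0.021, 0.80, 0.27, 0.48 and 0.67. For miR-432 these values were 0.62, 1.33, 0.36, 0.31 and 0.75. Both were thus above 0 in 5 of 5 sheep (exact permutation of the signs, two-sided, p = 0.0625 for each, which is the lowest value that 5 animals allow). Of all 152 miRNAs, 11 (7.24%) were higher in 5 of 5 sheep on this scale, 6 of them among the 59 that were not dim, and all but 7 were higher in sheep 6, where the control signal was lower in the fibrotic segment. The limma adjusted p on this scale was 0.828 for both.

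**Figure D2:**
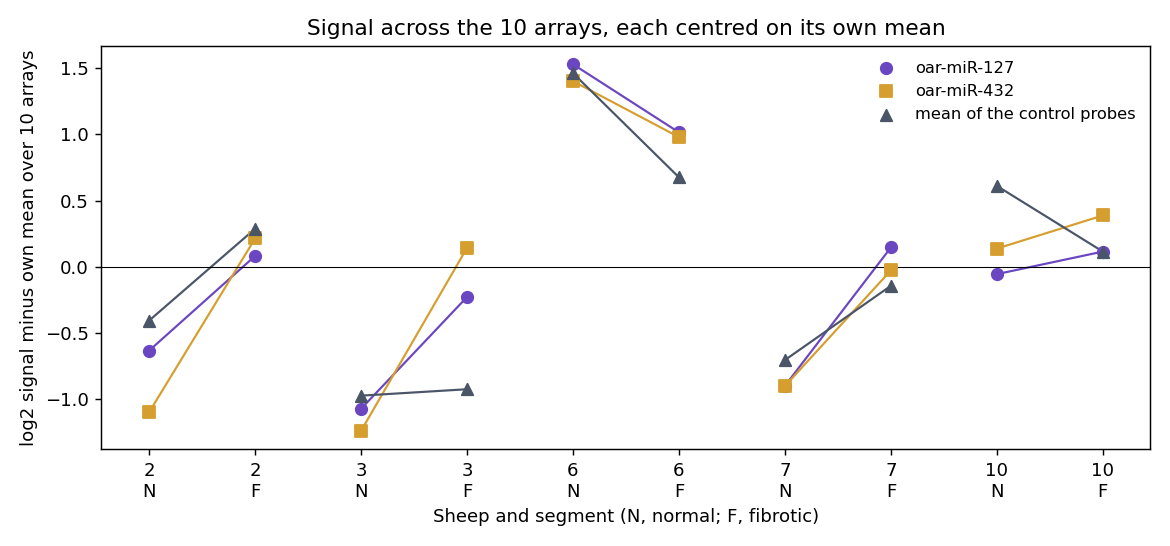
The log2 signal of miR-127, miR-432 and the mean of 31 control probes on the 10 arrays, each minus its own mean, ordered by sheep with the normal (N) before the fibrotic (F) segment and a line joining the segments of 1 animal. All 3 are highest in the normal segment of sheep 6 and lowest in that of sheep 3, and they part most clearly in sheep 3 and 10, where the controls changed by 0.049 and -0.50 while both miRNAs were higher in the fibrotic segment.

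The fibrotic segments were more alike than the normal ones for both miRNAs. The highest miR-127 intensity was 6.07 times the lowest among normal and 2.37 times among fibrotic segments, and for miR-432 these values were 6.24 and 2.01. The normal range rested on sheep 6, and without both of its segments the folds were 2.02 and 1.30 for miR-127 and 2.60 and 1.33 for miR-432. On the log2 scale the SD over fibrotic segments was 0.44 of that over normal segments for miR-127 and 0.35 for miR-432. Of the 59 probes that were not dim, 38 had a smaller SD in fibrotic segments, and miR-432 had the lowest and miR-127 the third lowest ratio among them. Without sheep 6 the ratios were 0.39 for miR-127 and 0.28 for miR-432, and 28 of the 59 probes had a smaller SD in fibrotic segments. The control probes showed the same direction, with an SD of 1.01 over normal and 0.60 over fibrotic segments. These ratios are a description without a test.

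MiR-433, which has been linked to TGF-β signalling in kidney fibrosis, is the hairpin with both arms on the array, and both arms were dim. The 3p arm had intensities of 3.94, 6.85, 2.37, 9.71 and 1.81 in the normal segments and of 3.40, 3.47, 6.19, 1.70 and 0.492 in the fibrotic ones. The 5p arm had 1.14, 0.312, 0.109, 0.344 and 1.04 in the normal segments and 1.32, 0.473, 5.02, 2.61 and 1.85 in the fibrotic ones. The 3p arm was lower in the fibrotic segment except in sheep 6, whereas the 5p arm was higher in sheep 2, 6, 7 and 10. In sheep 3 both values of the 5p arm lay under the floor of 1 and gave no direction, and 4 of its 10 values in all were under the floor. The log2 change of the 3p arm was -0.64 ± 0.55 (SE; limma adjusted p = 0.540), and it was -0.17 without sheep 7 and -1.14 without sheep 6. That of the 5p arm was 0.95 ± 0.38 (SE), with an unadjusted p of 0.0486 and an adjusted p of 0.411 in limma, and it was 0.61 without sheep 6.

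The difference of the arms within an array, 3p minus 5p on the log2 scale, averaged 1.98 ± 1.04 (SD, n = 5) over normal and 0.39 ± 1.18 (SD, n = 5) over fibrotic segments. Its changes were -0.43, -0.98, -0.94, -3.89 and -1.68. Their mean was -1.58 ± 0.61 (SE) and the sign was the same in 5 of 5 sheep (exact sign-flip permutation, two-sided, p = 0.0625, again the smallest possible). Without sheep 7 the mean was -1.01. Of the 48 hairpins with both arms on the array, 41 had both arms dim. Of the 48, 6 (12.5%) changed 1 way in all 5 sheep, 2 (4.17%) toward the 5p arm and 4 toward the 3p arm. The 2 were miR-433 and miR-544, and miR-433 had the lowest mean of the 48. Larger mean changes occurred toward the 3p arm, up to 3.29 for miR-410, whose arms were both dim as well. With the left segment taken as the treated one, as the methods write, the mean was 1.02, the opposite direction. Both arms lay near the floor of 1, and in sheep 3 the change came from the 3p arm alone. In sheep 6 and 7 the normal 5p value lay under the floor, at 0.109 and 0.344. In sheep 10 the fibrotic 3p value did, at 0.492. Only sheep 2, with a change of -0.43, had no value of either arm under the floor.

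**Figure D3:**
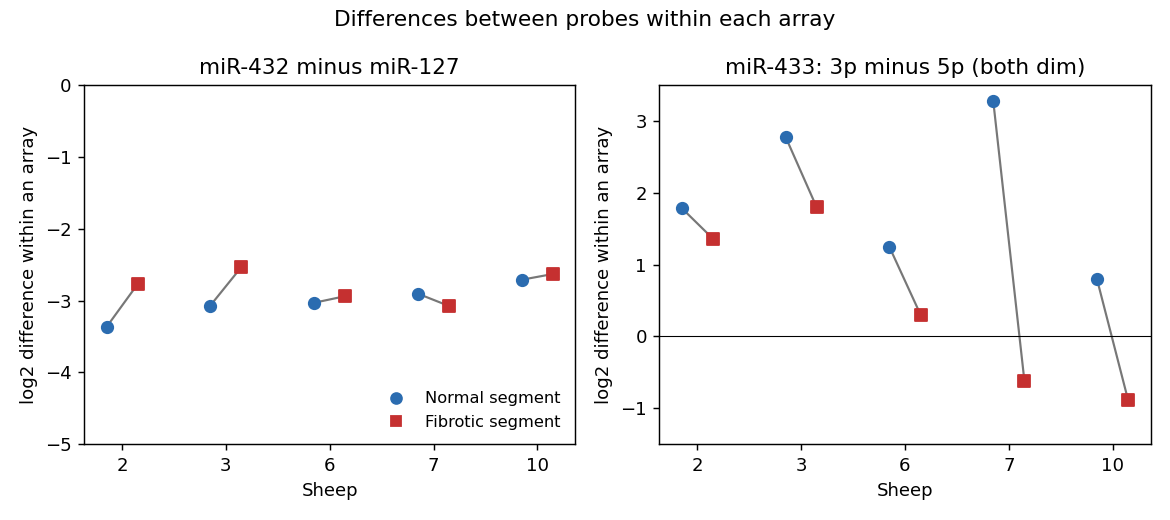
Log2 difference between probes within each array, miR-432 minus miR-127 (left) and miR-433 3p minus 5p (right), for the normal (circles) and the fibrotic segment (squares) of each sheep. The first stays between -3.37 and -2.53 on all 10 arrays, and the second drops toward the fibrotic segment in 5 of 5 sheep, with both arms dim.

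MiR-431, known from muscle progenitor cells, where it targets PAX7, ranged from 0.251 to 3.46 in intensity, with 5 of 10 values under 1. MiR-136, the last hairpin of the group, ranged from 0.187 to 2.56, with 3 of 10 values under 1. For miR-431 sheep 6 and 7 were above 0 and sheep 2 was below. Sheep 3 and 10 gave no direction for it, since both of their values lay under the floor. For miR-136 sheep 7 and 10 were above 0 and sheep 2, 3 and 6 below. Neither miRNA separated the groups. The log2 change was 0.11 ± 0.30 (SE; limma adjusted p = 0.840) for miR-431 and -0.22 ± 0.32 (SE; limma adjusted p = 0.757) for miR-136, and both crossed 0 without sheep 6, at -0.11 and 0.035. No difference between the segments was detected for either, and the signal of both lay near the floor of 1.

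**Figure D4:**
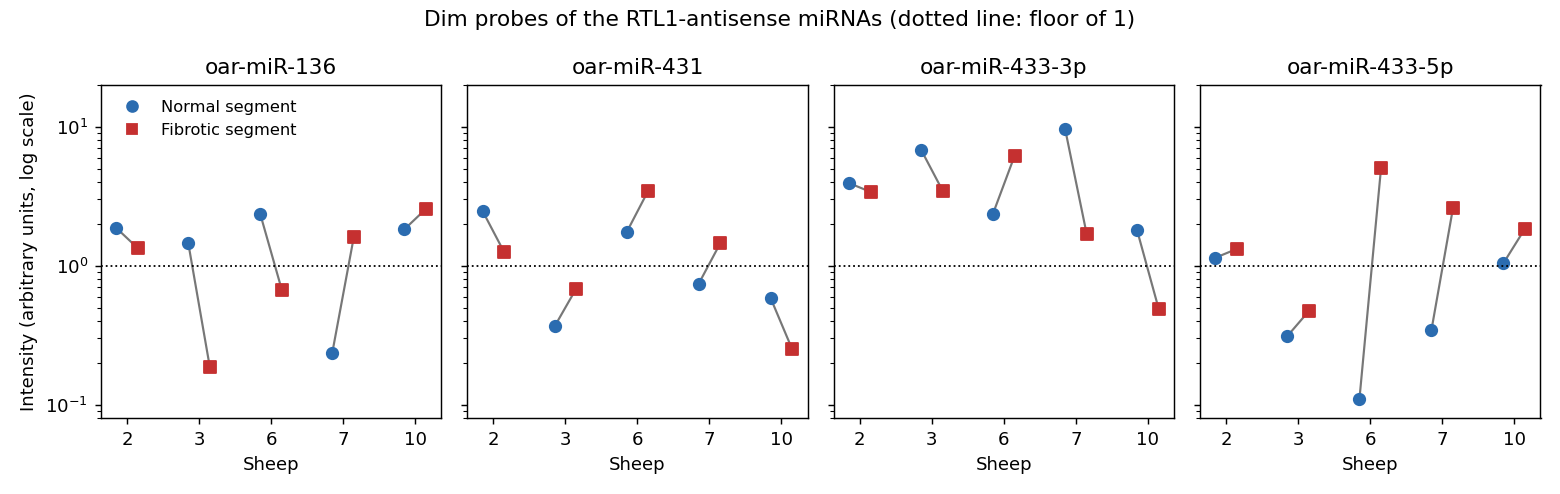
Intensity of the 4 dim probes on a log axis for the normal (circles) and the fibrotic segment (squares) of each sheep, with the floor of 1 as a dotted line. Values lie between 0.109 and 9.71. The lines of miR-433-5p climb toward the fibrotic segment above the floor in sheep 2 and 10 and across it in sheep 6 and 7. Both miR-433-5p values of sheep 3 lie under the floor.

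The array also held 96 probes of 50 other hairpins from the DLK1-DIO3 region, all of them on the same chromosome in the annotation, of which 89 were dim. In limma none had an adjusted p under 0.05, and at an unadjusted p under 0.05 there were 5 higher and 6 lower. Over the 96 probes the median log2 change was -0.00081, with 47 above and 48 below 0. The 7 that were not dim were miR-376c-3p, miR-376e-3p, miR-379-5p, miR-411a-5p, miR-487b-3p, miR-494-3p and miR-495-3p, and their median was 0.27, against -0.066 for all 59 probes that were not dim. Per animal, 5, 5, 2, 7 and 3 of these 7 were higher in the fibrotic segment, against 27, 30, 32, 32 and 26 of the 59. Relative to the control probes, miR-379-5p and miR-495-3p were higher in 4 of 5 sheep and the other 5 in 2 or 3.

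MiR-379-5p, which heads the large downstream cluster in other mammals and was closest to the pair in profile, was higher in 5 of 5 sheep, as were 13 of all 152 miRNAs (8.55%). Its log2 changes were 0.39, 1.09, 0.013, 1.47 and 0.21, with a mean of 0.64 (limma adjusted p = 0.428). MiR-495-3p had a mean change of 0.46, miR-376c-3p of 0.30, miR-487b-3p of 0.27, miR-376e-3p of 0.23 and miR-411a-5p of 0.15, and for these 5 the limma adjusted p lay between 0.509 and 0.835. MiR-494-3p was the exception, with a mean change of -0.26, and its values reached from -2.19 in sheep 6 to 1.31 in sheep 7. On average 6 of these 7 probes were above 0, against 27 of all 59 probes that were not dim, which include the 7 and the pair. MiR-127 and miR-432 were also above 0, but miR-432 passed the limit for dim probes only through its fibrotic segments. A difference in size between the 7 and the pair was not tested.

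**Figure D5:**
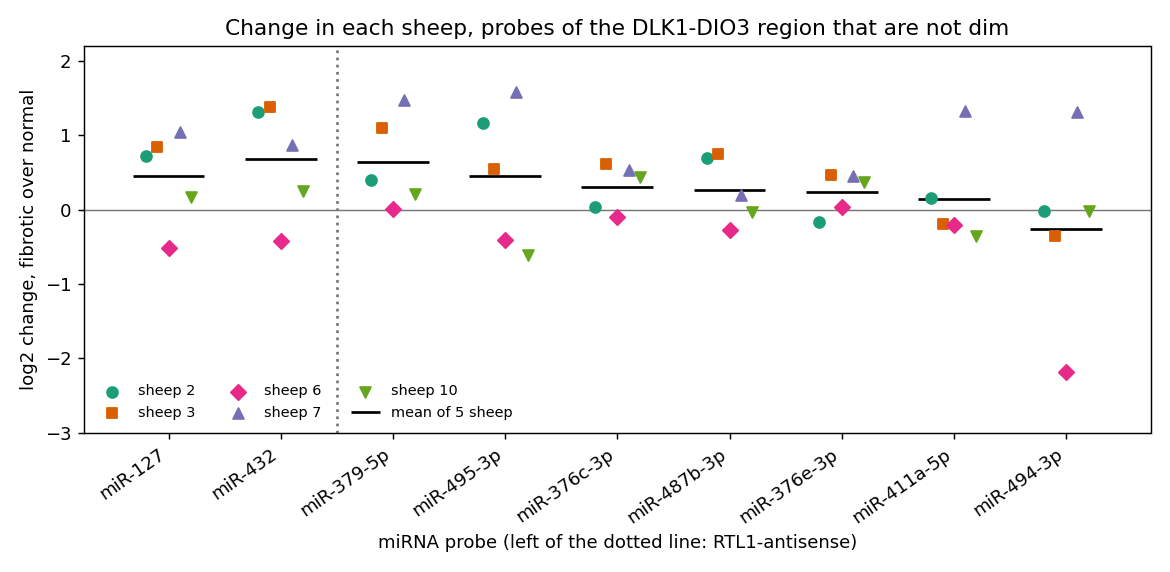
Log2 change of the fibrotic over the normal segment in each of the 5 sheep (coloured markers) with the mean (black line) for the 2 RTL1-antisense probes that were not dim and the 7 other such probes of the DLK1-DIO3 region. In sheep 6 the value is below 0 for miR-127 and miR-432 and for 5 of the 7 others, and in sheep 7 it is above 0 for all 9 probes.

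The markers of other cell types had the following values beside those of miR-127 and miR-432. The summed epithelial signal was higher in the fibrotic segment of 5 of 5 sheep, with a mean log2 change of 0.55. For mesenchyme and smooth muscle the sum ran from 5564 to 20054 in normal and from 8483 to 16264 in fibrotic segments, higher in 3 of 5 sheep. Within it miR-143 was higher in 3 of 5 with a mean log2 change of 0.056. MiR-199a-3p was higher in 5 of 5, as were 13 of all 152 miRNAs (8.55%), with a mean log2 change of 0.49. The striated muscle probe miR-133 lay between 35.2 and 162 in normal and between 23.5 and 49.3 in fibrotic segments, higher in 2 of 5 sheep, and miR-150 of blood cells between 445 and 2107 in normal and between 309 and 1985 in fibrotic segments, higher in 1 of 5. In limma none of these 7 probes had an adjusted p under 0.05. The part of tissue composition in the values of miR-127 and miR-432 was not tested.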

How the data were processed

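Total RNA of 10 lung segments was hybridised by a service provider to a custom ovine miRNA array with 1 dye. For each probe and array the authors deposited a single intensity, described in the methods as background corrected, log2 transformed and averaged over replicate spots. The deposited intensity values were linear, with no scaling between arrays named in the sources used here. Their summed miRNA intensity lay between 138979 and 146225 on every array, and whether they had already been scaled to the miRNA signal was not tested.

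Values under 1 were raised to 1 before the log2 step. A linear model with condition and sheep was fitted to all 152 miRNA probes in limma (version 3.58.1; R version 4.3.3), variances were moderated with eBayes, and p was adjusted by the Benjamini-Hochberg method. Segments were paired because they came from 1 animal. The deviations of both segments from their group means correlated at 0.34, 0.90, 0.40, -0.67 and 0.56 across the 152 probes in sheep 2, 3, 6, 7 and 10. Across the 59 probes that were not dim these values were 0.40, 0.88, 0.82, 0.21 and 0.45. In 50 simulated sets, 78.6% of miRNAs changed by 2 on the log2 scale were called in this comparison, and 95.1% of those not dim. In the data the changes of probes that were not dim lay between -0.88 and 0.73. Changes of that size were not simulated, so these shares do not apply to miR-127 and miR-432. The number of arrays limits the precision.

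Members, lists and comparisons were chosen with earlier results of these data known. Named were all members, the 3 closest profiles, the other probes of the region that were not dim and the marker miRNAs. MiR-544 and miR-410 were named after their values were seen. Alternatives were a floor of 32, 5 scalings between arrays, no block, other codings of the segments and leaving out each sheep. Further ones were a filter on dim probes, an intensity trend and a t-test paired over sheep. No floor for the arm difference and the spread without sheep 6 were added after the data were seen. Names and gene order came from RefSeq. No array build is named, so no coordinates are given.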

Additional observations from a re-analysis of the deposited data

How the results depend on the processing

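No RTL1-antisense probe passed the threshold under any of 18 alternatives. Over all miRNAs a t-test paired over sheep gave 1 miRNA at the methods' unadjusted threshold and 0 after Benjamini-Hochberg adjustment. The methods describe a Student's t-test for each sheep on its own, so this is not a repeat of that analysis. The log2 change of miR-127 and of miR-432 was above 0 under all 16 alternatives run for each. It ran from 0.17 to 0.78 for miR-127 and from 0.15 to 1.35 for miR-432. With the left segment coded as treated it was 0.17 for miR-127 and 0.40 for miR-432. That coding swaps the labels of sheep 6, 7 and 10, so these values do not compare the labelled groups. Without the replicate block, that is not paired by sheep, the change of miR-127 was again 0.45, with a limma adjusted p of 0.739, and no call changed. When the left segment was coded as treated in each animal, as the methods write, the arm difference of miR-433 was 1.02, miR-433-3p 0.16, miR-433-5p -0.86 and miR-431 -0.50. With sheep 2 and 3 alone, the median over the 6 probes was -0.19 and miR-431 was -0.49. Centring arrays on the miRNA median moved the median of all miRNAs from -0.021 to -0.18 and miR-431 to -0.046, with miR-127 at 0.30 and miR-432 at 0.52. With 1 sheep left out in turn, miR-431 ran from -0.11 to 0.38 and miR-136 from -0.45 to 0.035, both crossing 0 without sheep 6. The causes were not tested. A floor of 32 left no value for the 4 dim probes or the arm difference. Without any floor the arm difference rested on values under 1, and no size is read from it.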
